A study of Mus musculus with 2 samples.

Results

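The 8 tendon lineage genes Scx, Mkx, Tnmd, Chad, Comp, Thbs4, Tnc and Cilp2 were followed as a listed set, out of 27998 genes in the files, across the cell classes of mouse quadriceps, a limb muscle, and diaphragm, the respiratory muscle. All 8 were present in the files, and none was chosen by a threshold on its level. Tendon fibroblasts, or tenocytes, build the collagen cords that tie muscle to bone. The transcription factors Scx (scleraxis) and Mkx (mohawk) direct their development, and Tnmd (tenomodulin) is a membrane glycoprotein that marks the mature cell. Chad, Comp, Thbs4, Tnc and Cilp2 encode secreted proteins of the tendon or cartilage matrix. Fibro-adipogenic progenitors (FAP cells) are fibroblast-like cells that lie between muscle fibres and are marked by Pdgfra.

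Mononuclear cells of C57BL/6J mice were profiled by droplet scRNA-seq, with 1 library of quadriceps and 1 of diaphragm and no treatment named for either. The age and sex of the mice are not given in the sources used here. Cells of several animals went into each library as a single suspension, which had passed a density gradient and a viability sort on light scatter, with no surface marker. With 1 sample per group there was no test between the muscles or between classes, so values are set side by side. Their 95% intervals are exact Poisson for levels, exact conditional binomial for ratios and Clopper-Pearson for shares, and cover counting error only.

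The files held 5159 quadriceps barcodes with 50854519 unique molecular identifiers (UMIs, counted RNA molecules) and 2499 diaphragm barcodes with 28545242 UMIs. After removal of barcodes under 1000 UMIs and of those with outlying high counts, 5010 and 2430 cells remained, with medians of 9880.5 and 11983.5 UMIs. The libraries shared 5 barcode sequences. FAP cells were the cells with at least 1 Pdgfra UMI and 50 Dcn UMIs, 2339 in quadriceps and 2008 in diaphragm. Other cells were placed in classes by clusters built without the 8 genes and named from marker lists, so those names end in "-like".

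A single cluster carried the tenocyte markers. It held 305 quadriceps cells and 1 diaphragm cell, and all 8 tenocyte markers of the naming list were raised in it, among them the collagen-binding proteoglycans Fmod and Kera. Of its quadriceps cells 202 passed the FAP gate, and the other 103 are called tenocyte-like here. Among these 103 cells, 97 had no Pdgfra UMI, 34 had under 50 Dcn UMIs and 28 had both. Pdgfra was at 14.7 CPM (counts per 1000000 UMIs) in them and at 511 CPM in quadriceps FAP cells, a contrast that the FAP gate used. Fmod was at 11509 and 125 CPM, a contrast that the naming of the cluster used. No diaphragm cell was tenocyte-like by this definition.

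Gene positions are those of GENCODE M21 on GRCm38, the build of the count files. Tnmd lies on chromosome X at 133850980 to 133865577 on the plus strand, Chad on chromosome 11 at 94565047 to 94569127 on the plus strand, and Thbs4 on chromosome 13 at 92751590 to 92794818 on the minus strand. Scx lies on chromosome 15 at 76457452 to 76459458 on the plus strand and is overlapped on the other strand by Bop1. Chad is overlapped on the other strand by Acsf2. Whether the counting used strand is not given in the sources used here, and without strand the reads of such overlapping genes cannot be told apart.

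The stretches before the starts of Tnmd, Chad and Thbs4 are shown because the contrast between the muscles turned on these genes: Tnmd and Thbs4 were seen in FAP cells of both, and nearly all Chad UMIs were in quadriceps. A RefSeq window (GRCm38.p6) was matched for 5 of the 8 genes. Each sequence runs 5′ to 3′ on the strand of the gene and ends before the annotated start. Capitals mark the E-box CANNTG, a motif bound by basic helix-loop-helix factors, the family to which Scx belongs; it reads the same on either strand.
Tnmd, chrX:133850758-133850979, plus strand: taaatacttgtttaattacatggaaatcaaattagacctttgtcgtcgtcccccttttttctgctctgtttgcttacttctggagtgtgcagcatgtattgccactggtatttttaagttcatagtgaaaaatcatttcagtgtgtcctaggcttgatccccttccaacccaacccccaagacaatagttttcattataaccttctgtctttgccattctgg
Chad, chr11:94564797-94565046, plus strand: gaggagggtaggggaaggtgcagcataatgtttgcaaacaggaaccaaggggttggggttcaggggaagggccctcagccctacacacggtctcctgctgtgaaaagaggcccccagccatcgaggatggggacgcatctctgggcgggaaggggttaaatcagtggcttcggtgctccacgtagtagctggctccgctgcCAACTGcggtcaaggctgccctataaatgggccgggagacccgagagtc
Thbs4, chr13:92794819-92795068, minus strand: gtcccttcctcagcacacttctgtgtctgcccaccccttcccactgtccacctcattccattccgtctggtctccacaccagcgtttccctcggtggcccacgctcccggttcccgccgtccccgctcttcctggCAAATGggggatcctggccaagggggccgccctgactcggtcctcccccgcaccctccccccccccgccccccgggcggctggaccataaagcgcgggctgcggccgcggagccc

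Chad had 1 E-box, whose last base lay 43 bases before the RefSeq start, and 1 TATAAA at 22 bases before it. Thbs4 had 1 E-box at 109 bases before its start. Tnmd had 0 in this window. Such matches were common, since 66.2% of all 32851 windows of 250 bases held at least 1 CANNTG and 12.4% held TATAAA on either strand. A match describes letters only.

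In quadriceps, all 8 genes were far higher in tenocyte-like cells than in FAP cells. Each ratio was at least 26.3, so 8 of 8 genes were past 2-fold, while 6.56% of all 3462 genes tested were past 2-fold in this direction. A gene was tested when the higher of both classes reached 50 CPM. Scx, Mkx, Chad, Tnc and Cilp2 reached this only in tenocyte-like cells, with 15.0 CPM or less in FAP cells. Passing the filter thus fixed their calls. Tnmd, Comp and Thbs4 reached 50 CPM in both classes. The median log2 fold of the 8 genes was 5.56, beside -0.17 over all genes tested. The 8 genes had no part in building the cluster, although genes that vary with them had. Levels are class sums of UMIs expressed as CPM. They count transcript ends and are not scaled by length, so a level is compared between cells for 1 gene at a time.

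The transcription factors had the fewest UMIs. Scx was at 472 CPM in tenocyte-like cells (354 UMIs in 57 of 103 cells) and at 7.98 CPM in quadriceps FAP cells (212 UMIs in 32 of 2339 cells), a ratio of 59.2 (interval 49.8 to 70.5). Mkx was at 58.7 CPM (44 UMIs in 26 cells) and 1.24 CPM (33 UMIs in 25 cells), a ratio of 47.2 (29.4 to 76.6). Both factors were thus seen in a minority of FAP cells, and 64 of the 212 Scx UMIs of quadriceps FAP cells came from a single cell.

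Tnmd, the membrane marker, was at 2026 CPM in tenocyte-like cells, with a UMI in 85 of the 103, and at 53.0 CPM in quadriceps FAP cells, with a UMI in 230 of 2339. The ratio was 38.2 (35.5 to 41.1).

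Among the matrix genes, Chad and Cilp2 had the largest ratios and Comp the smallest of the 8. Chad (chondroadherin, a leucine-rich repeat protein that cells attach to) was at 1710.1 CPM in tenocyte-like cells and 13.8 CPM in FAP cells, a ratio of 124 (110.1 to 139). Cilp2, a secreted relative of cartilage intermediate layer protein, was at 1685 and 15.0 CPM, a ratio of 112 (100.4 to 126). Tnc (tenascin C, a glycoprotein of tendon and wound matrix) was at 809.7 and 14.3 CPM, a ratio of 56.7 (49.8 to 64.7). These genes were near the floor of detection in most FAP cells, each with a UMI in 57 or fewer of the 2339.

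The thrombospondin family members Thbs4 and Comp were also high in tenocyte-like cells but were seen in more FAP cells. Thbs4, a secreted protein of tendon and muscle matrix, was at 10815 CPM in tenocyte-like cells (86 of 103 cells) and 254 CPM in FAP cells (358 of 2339 cells), a ratio of 42.5 (41.1 to 43.9). Comp (cartilage oligomeric matrix protein, which binds collagen fibrils) was at 2776 and 106 CPM, with a UMI in 67 and 243 cells, a ratio of 26.3 (24.8 to 27.8). In the order of the ratios, the intervals of Chad and Cilp2 overlapped each other, as did those of Scx, Tnc and Mkx, and the wide interval of Mkx also covered the ratios of Thbs4 and Tnmd.

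**Figure D1:**
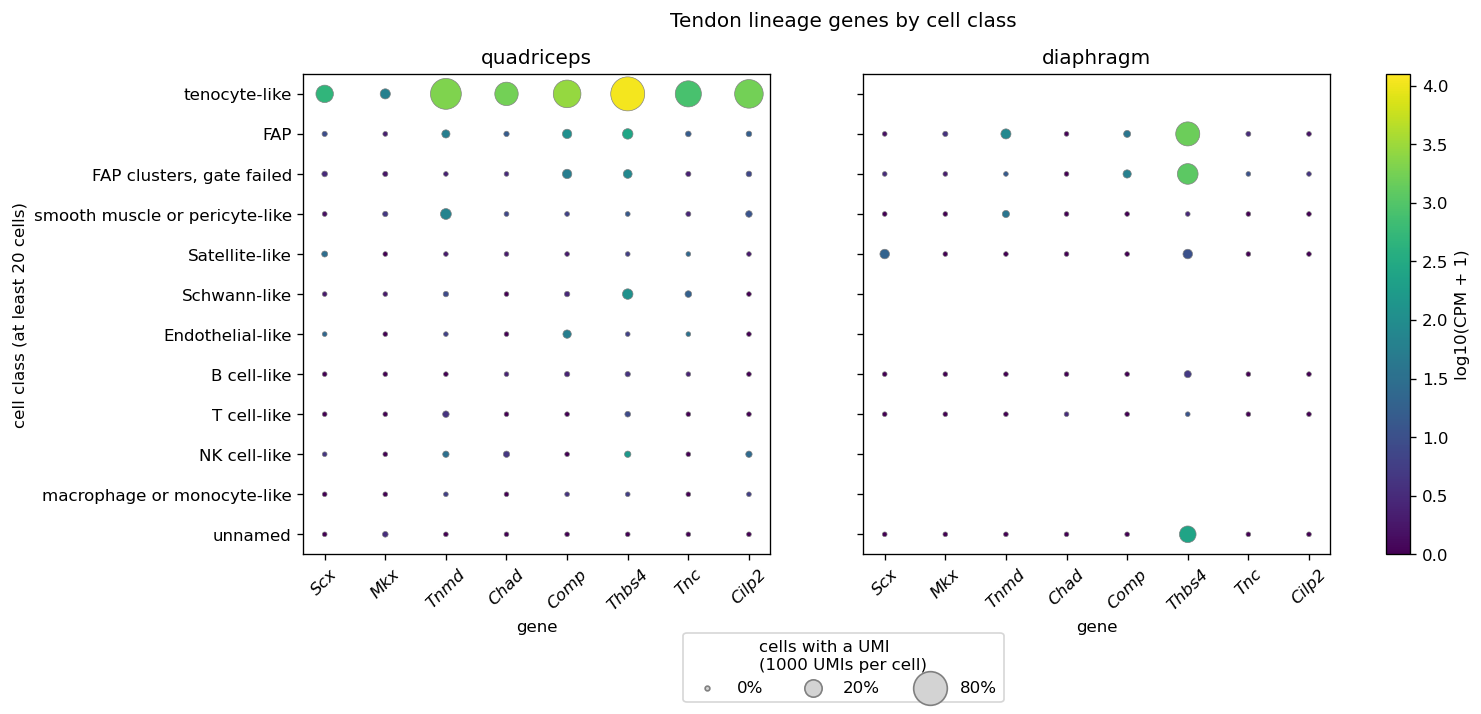
Tendon lineage genes (x axis) by cell class (y axis, classes of at least 20 cells) in quadriceps and diaphragm, with colour for log10(CPM + 1) and dot size for the percent of cells with a UMI at 1000 UMIs per cell. Tenocyte-like cells of quadriceps carry all 8 genes, from 5.83% of cells for Mkx to 81.6% for Thbs4, and in diaphragm Thbs4 stands out in FAP cells at 40.0%.

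Within the tenocyte-like class the genes were unevenly spread over cells. Thbs4 ranged from 0 to 535 UMIs per cell with a median of 54, Tnmd from 0 to 85 with a median of 7, and Cilp2 from 0 to 120 with a median of 5. Chad ranged from 0 to 186 UMIs with a median of 1 and was seen in 53 of the 103 cells, so its level rested on part of the class. Comp likewise ranged from 0 to 294 UMIs with a median of 4, and a single cell gave 14.1% of its UMIs.

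Tenocyte-like cells were shallower than FAP cells, with a median of 4834 against 10782 UMIs, and 82 of the 103 had over 5% mitochondrial UMIs (median 8.0%, against 3.97% in FAP cells). Cells of FAP clusters that failed the same gate were shallow too, with a median of 3642.5 UMIs in 274 quadriceps cells, and did not carry the genes at those levels: Tnmd was at 1.42 CPM, Scx at 2.13 CPM, Cilp2 at 6.39 CPM and Thbs4 at 81.7 CPM. This cannot speak to depth, since a cluster was named FAP only with fewer than 3 tenocyte markers raised. When only cells with at most 5% mitochondrial UMIs were used, 21 tenocyte-like cells remained. The log2 folds over FAP cells then ran from 4.01 for Comp to 6.08 for Tnc, and Mkx, at 34.8 CPM, no longer reached 50 CPM. The order of the ratios was then another one, with Tnc above Cilp2 (5.13) and Chad (4.83). Levels were lower than in all 103 cells, with Thbs4 at 5328 CPM, Cilp2 at 333 CPM, Chad at 273 CPM and Scx at 119 CPM. The part of depth and RNA quality in the levels was not tested further.

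To compare shares at 1 depth, every cell was thinned to 1000 UMIs, which all cells kept could give. A UMI was then found in 67.0% of tenocyte-like cells for Tnmd (interval from 57.0%), 81.6% for Thbs4 (from 72.7%), 57.3% for Cilp2, 53.4% for Comp, 47.6% for Tnc, 37.9% for Chad, 20.4% for Scx and 5.83% for Mkx. In quadriceps FAP cells the shares were 3.21% for Tnmd, 6.33% for Thbs4, 4.70% for Comp, 0.727% for Tnc, 0.684% for Cilp2, 0.470% for Chad, 0.385% for Scx and 0.0855% for Mkx. Without thinning, Tnmd was seen in 82.5% of tenocyte-like cells and 9.83% of quadriceps FAP cells. Immune-like cells, which should lack these genes, had a median of 3614 UMIs and showed how far free RNA reaches: of 506 quadriceps cells, 7 had a UMI of any of the 8 genes at 1000 UMIs. By level, quadriceps FAP cells had 18.2 times the Scx of immune-like cells (3.23 to 723, from 1 immune UMI) and 15.8 times the Chad (4.33 to 131, from 2). Single FAP cells held up to 64 Scx and 70 Chad UMIs, so these genes were carried by few cells at high counts. Mkx had 0 UMIs in immune-like cells, and the lower bound of its ratio, 0.727, did not separate FAP cells from them.

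FAP cells of quadriceps were not uniform, since the 202 that fell in the tenocyte-like cluster held a large part of the UMIs of every gene of the set. These 202 cells were 4.03% of the quadriceps cells kept and carried 1094 of the 1408 FAP UMIs of Tnmd, 191 of 212 of Scx, 323 of 367 of Chad, 342 of 398 of Cilp2, 267 of 379 of Tnc and 3694 of 6758 of Thbs4. Comp had 1437 of 2803 and Mkx 16 of 33. Levels in the 202 cells were 456 CPM for Tnmd, 79.6 CPM for Scx, 135 CPM for Chad, 143 CPM for Cilp2, 111 CPM for Tnc, 599 CPM for Comp and 1539.8 CPM for Thbs4. In the other 2137 FAP cells they were 13, 0.869, 1.82, 2.32, 4.64, 56.5 and 127 CPM in the same order.

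The 7 genes that reached 50 CPM were all past 2-fold between these FAP groups, where 4.27% of 3349 genes were past 2-fold in that direction. Tnmd, Scx, Chad, Cilp2 and Tnc reached 50 CPM only in the 202 cells, so passing the filter fixed their calls. Comp and Thbs4 reached it in both groups. The cluster was built with genes that vary with the set. The 202 cells were still mixed, as Tnmd was seen in 95 of them, Thbs4 in 65, Scx in 17 and Chad in 10. They had Pdgfra at 484 CPM with a median of 5 UMIs per cell, near the 511 CPM of all quadriceps FAP cells. The gate that defined both groups required a Pdgfra UMI, so this likeness is no separate evidence. Their median depth was 11649 UMIs.

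**Figure D2:**
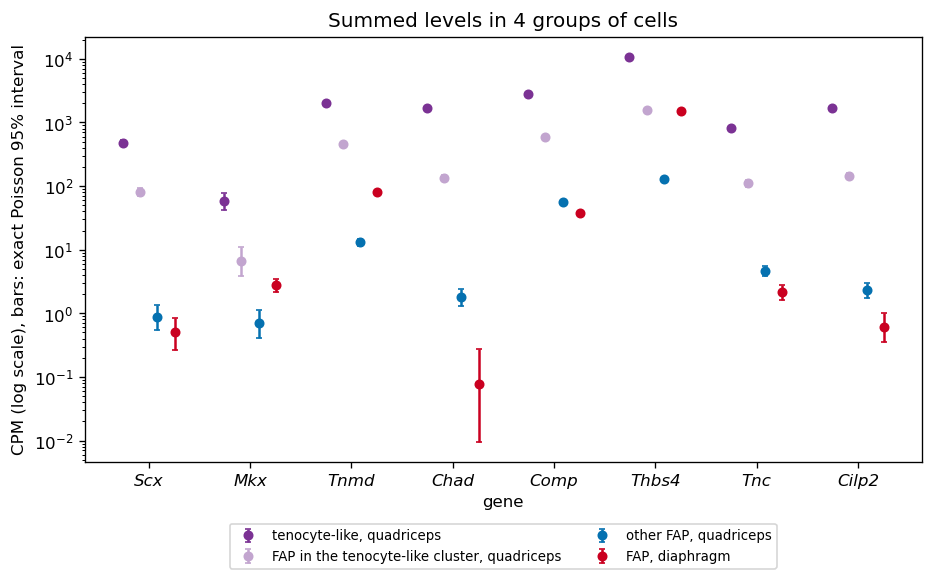
Summed level of each gene in CPM on a log scale (y axis) in tenocyte-like cells of quadriceps, quadriceps FAP cells inside and outside the tenocyte-like cluster, and diaphragm FAP cells. Bars are exact Poisson 95% intervals. For Thbs4 and Tnmd the diaphragm FAP cells (1533 and 80.6 CPM) lie above the other quadriceps FAP cells (127 and 13 CPM), and for Chad they lie at 0.0773 CPM.

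Between the muscles, FAP cells had a different make-up of tendon genes. Thbs4 was at 1533 CPM in diaphragm (39668 UMIs in 1231 of 2008 cells) and 254 CPM in quadriceps (6758 UMIs in 358 of 2339 cells), a ratio of 6.02 (5.87 to 6.18) and a log2 fold of 2.59. Comp was lower in diaphragm, at 38.0 against 106 CPM, a ratio of 0.360 (0.335 to 0.388). Tnmd was at 80.6 and 53.0 CPM, a ratio of 1.52 (1.42 to 1.63) that stayed within 2-fold.

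Of the 3 genes that reached 50 CPM in either muscle, 1 was thus past 2-fold higher in diaphragm, where 3.66% of 3308 genes were, and 1 past 2-fold lower, where 3.11% were. The median log2 fold over all genes tested was -0.10. The other 5 genes had under 50 CPM in both muscles. Scx was at 0.502 CPM in diaphragm (13 UMIs in 11 cells) and 7.98 CPM in quadriceps, Chad at 0.0773 CPM (2 UMIs in 2 cells) and 13.8 CPM, Cilp2 at 0.618 CPM (16 UMIs) and 15.0 CPM, and Tnc at 2.16 CPM (56 UMIs, 26 of them in 1 cell) and 14.3 CPM. Mkx alone of the 5 was higher in diaphragm, at 2.78 CPM (72 UMIs in 63 cells) against 1.24 CPM, a ratio of 2.24 (1.46 to 3.49).

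The contrast between the muscles depended on the FAP cells of the tenocyte-like cluster, nearly all of which were from quadriceps. With those cells left out, 2 of the 3 genes were past 2-fold higher, where 3.87% of 3336 genes were, and 0 lower, where 3.15% were. Thbs4 was 12.1-fold higher in diaphragm (log2 3.59) and Tnmd 6.20-fold higher (80.6 against 13 CPM, log2 2.54). Tnmd reached 50 CPM here only in diaphragm, so passing the filter fixed its call. The log2 fold of Comp then moved from -1.45 to -0.56, within 2-fold, that of Scx from -2.58 to -0.31, that of Tnc from -2.27 to -0.83 and that of Cilp2 from -3.30 to -1.04. Chad was at 0.0773 against 1.82 CPM (log2 -1.39), with 21 of its 44 quadriceps UMIs in 1 cell, and Mkx was higher, at 2.78 against 0.704 CPM. The lower Scx, Comp and Tnc levels of diaphragm FAP cells therefore rested largely on these 202 quadriceps cells, whereas the higher Thbs4 and Tnmd did not. Chad and Cilp2 stayed lower in diaphragm without them, Cilp2 at 0.619 against 2.32 CPM. At such levels the pseudocount of 1 CPM shrinks the log2 fold, and few UMIs stand behind them.

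At 1000 UMIs per cell, 40.0% of diaphragm FAP cells had a Thbs4 UMI (37.9% to 42.2%), against 6.33% of quadriceps FAP cells and 1.96% of diaphragm immune-like cells. Tnmd was seen in 5.73% against 3.21%, and in 0 of 153 diaphragm immune-like cells, which allows a share of up to 1.96%. Scx and Chad were each seen in 0 of 2008 diaphragm FAP cells at this depth, and without thinning in 11 and 2 of them. Without thinning the Thbs4 shares were 61.3% and 15.3%, at medians of 12572.5 and 10782 UMIs.

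Other markers moved with the muscle as well. The summed level of the 8 smooth muscle or pericyte markers in FAP cells was 2156 CPM in quadriceps and 78.0 CPM in diaphragm. The gate took cells from any cluster, and 52 quadriceps but 0 diaphragm FAP cells lay in smooth muscle or pericyte-like clusters. A FAP subcluster led by Tagln, Acta2 and Myh11 held 55 quadriceps and 0 diaphragm cells. The doublet caller Scrublet, used as an alternative, called 71 quadriceps FAP cells. Whether the smooth muscle or pericyte-like ones were among them was not examined. Egr1, an immediate early gene that tendon cells also use, was at 410 and 2377 CPM. The part of these differences in the tendon gene levels was not tested. A muscle and its library cannot be told apart here.

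No diaphragm cell was tenocyte-like in the joint clustering. When the diaphragm library was clustered on its own, a cluster of 179 cells met the naming rule, and 16 of them failed the FAP gate. In these 16 cells Thbs4 was at 3396.5 CPM (361 UMIs in 16 of 16 cells) and Tnmd at 94.1 CPM (10 UMIs in 2 cells), and Scx and Mkx had 1 UMI each. Chad, Comp, Tnc and Cilp2 had 0 UMIs. The whole cluster of 179 cells had Thbs4 at 4454 CPM, Tnmd at 274 CPM and Mkx at 13.7 CPM, with 1 UMI each of Scx and Chad, no UMI of Kera or Wif1 and a UMI of Pdgfra in 171 cells. Comp was at 33.6 CPM (71 UMIs in 6 cells), Tnc had 4 UMIs and Cilp2 3. In the 16 cells Fmod was at 84.7 CPM (9 UMIs in 3 cells), Kera, Col11a2 and Wif1 had 0 UMIs and Pdgfra was at 320 CPM in 8 of them. Of the other naming markers Cilp was high, at 3340 CPM in 16 of 16 cells. 1500015O10Rik was at 103 CPM in 5 cells, Angptl7 at 47.0 CPM in 3, and Col11a1 had 1 UMI. Their markers were thus mixed, and they are not called tenocyte-like.

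Of the other tendon genes listed beside the 8, matrix genes were often higher in tenocyte-like cells. Of 30 tendon matrix genes 20 were past 2-fold higher and 1, Lum, was lower, where 6.56% of all genes tested were higher and 11.4% lower. The 4 with the largest folds, Kera (log2 fold 6.75), Col11a2 (6.64), Fmod (6.51) and Col11a1 (6.27), were naming markers. Without the 8 naming markers 12 of 22 were higher, with a median log2 fold of 1.32, and these included the tendon collagen gene Col22a1 (5.90), the fibril-associated collagen gene Col12a1 (4.37) and the collagen crosslinking enzyme Lox (3.49), named after their values were seen. Of 20 regulators and signals 11 reached 50 CPM, of which 7 stayed within 2-fold, Ctgf (2.69) and Tgfb3 (1.63), growth factors of connective tissue, were higher and Pdgfra (-5.03), which the gate uses, and the protease Htra3 (-1.72) lower.

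Cartilage and fibre genes were low. None of the 10 cartilage genes reached 50 CPM, and their summed level was 61.4 CPM in tenocyte-like cells and 33.2 CPM in quadriceps FAP cells. The 10 muscle fibre genes summed to 20.01 and 12.7 CPM. Of the 8 smooth muscle or pericyte markers 5 reached 50 CPM. All 5 were past 2-fold lower in tenocyte-like cells than in FAP cells, where 11.4% of 3462 genes were. The FAP cells here included 52 from smooth muscle or pericyte-like clusters. The 7 satellite markers summed to 938 CPM in tenocyte-like and 245 CPM in FAP cells. Of the 3 that reached 50 CPM, Chodl was past 2-fold higher, Des was past 2-fold lower and 1 was within 2-fold. Of all genes tested, 6.56% were higher and 11.4% lower. The defining Pax7, Myf5 and Myod1 had 0 UMIs in tenocyte-like cells.

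Between the muscles, 24 of the 30 matrix genes reached 50 CPM in FAP cells and 19 stayed within 2-fold. In diaphragm 4 were past 2-fold higher, where 3.66% of all genes were: Fbln1 (log2 fold 2.05), Cilp (1.55), Col12a1 (1.36) and Bgn (1.33), all secreted matrix proteins. Fmod was lower (-1.87), but without the FAP cells of the tenocyte-like cluster 0 genes were lower and 5 higher, with Lox as the fifth. Among the regulators 11 were tested, Egr1 (2.53), Ctgf (1.29), Tgfb3 (1.24) and Htra3 (1.22) were past 2-fold higher, and Tgfb2 (-1.001) lower.

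Outside the fibroblast classes the genes were sparse, with a few exceptions that kept to a cell type. In quadriceps smooth muscle or pericyte-like cells Tnmd was at 67.7 CPM (63.9 to 71.8), with a UMI in 525 of 1202 cells, above the 53.0 CPM of FAP cells and 11.0 times the level in immune-like cells (6.55 to 20.3). In diaphragm the same class had Tnmd at 37.9 CPM (22.8 to 59.2; 19 UMIs in 10 of 47 cells), and immune-like cells had 0 UMIs. Cilp2 was at 10.7 CPM in 135 of the 1202 quadriceps cells, and Mkx at 3.65 CPM in 52. At 1000 UMIs per cell Tnmd was seen in 6.91% of the quadriceps class and 0.593% of immune-like cells. Cilp2 and Mkx had 0 UMIs in the 47 diaphragm cells, which allows up to 5.99 CPM each, below the quadriceps level of Cilp2 and above that of Mkx. The quadriceps class, 24.0% of the cells kept, gave 28.0% of all Tnmd UMIs of its library. Tenocyte-like cells, 2.06% of the cells, gave 37.0%, and FAP cells, 46.7% of the cells, gave 34.3%. Of the smooth muscle or pericyte-like cells, 1194 of 1202 in quadriceps and 46 of 47 in diaphragm had over 5% mitochondrial UMIs. Their median mitochondrial shares were 17.2% and 18.5%, against 3.97% and 4.11% in FAP cells. A limit of 5% would leave too few of these cells for a comparison, so the part of RNA quality in their levels was not tested.

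Scx was found in satellite-like cells, the stem cells of muscle fibres, at 28.3 CPM in quadriceps (19.1 to 40.4; 30 UMIs in 16 of 202 cells), below only tenocyte-like cells among the classes and above the 7.98 CPM of FAP cells. Endothelial-like cells followed with 21.5 CPM from 4 UMIs, and their interval (5.87 to 55.1) overlapped both. In diaphragm satellite-like cells Scx had 2 UMIs in 1 of 20 cells. Thbs4 was at 111 CPM (92.4 to 133) in quadriceps Schwann-like cells, the glia of nerves, with a UMI in 26 of 189 cells, and Tnc at 16.4 CPM in 14 of them. Endothelial-like cells also had Comp at 53.8 CPM (10 UMIs in 3 cells) and 6 Tnc UMIs in 1 cell.

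Some high levels in other classes came from single cells. In smooth muscle or pericyte-like cells of quadriceps 107 of 110 Chad UMIs and 178 of 211 Thbs4 UMIs were in 1 cell, in NK-like cells 42 of 44 Thbs4 UMIs were in 1 cell, and in satellite-like cells all 23 Tnc UMIs were. In diaphragm, 38 barcodes rich in mitochondrial RNA that stayed unnamed had Thbs4 at 246 CPM (18 UMIs in 9 barcodes) and 0 UMIs of the other 7 genes.

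Over single cells the 8 genes went together in quadriceps, while in diaphragm most correlations were low and most genes sparse. Over the 2339 quadriceps FAP cells the median Pearson correlation of the 28 pairs was 0.37, with 23 pairs over 0.2, and the highest were Scx with Cilp2 (0.71), Chad with Cilp2 (0.71) and Scx with Chad (0.67). Over the 2008 diaphragm FAP cells the median was 0.04, and 2 pairs were over 0.2: Tnmd with Thbs4 (0.41) and Scx with Cilp2 (0.20), the latter from 13 and 16 UMIs. There Chad, Scx, Cilp2, Tnc and Mkx had 2 to 72 UMIs each. Low values of their pairs cannot tell sparse counts from genes that do not go together. Of the better counted genes, Comp was at 0.04 with Tnmd and 0.02 with Thbs4. Over the 103 tenocyte-like cells the median was 0.37 and the highest pair was Thbs4 with Cilp2 (0.69). These values are descriptions of cells that share a library, and in sparse counts a few cells can set them.

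**Figure D3:**
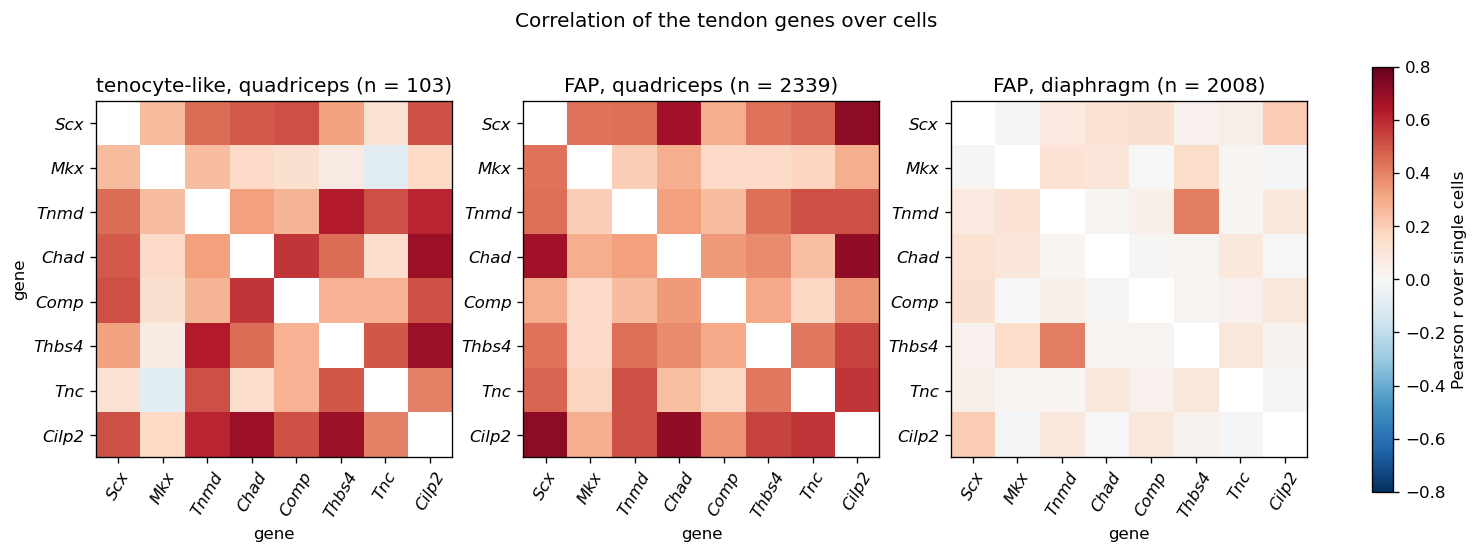
Pearson correlation of log-scaled values over single cells for each pair of the 8 genes (both axes) in tenocyte-like cells and FAP cells of quadriceps and in FAP cells of diaphragm, with the diagonal left blank. Most pairs are positive in both quadriceps groups, and in diaphragm Tnmd with Thbs4 at 0.41 is the one strong pair.

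The quadriceps pattern was set by a small number of cells. Without the 202 FAP cells of the tenocyte-like cluster the median correlation was 0.10 and 6 pairs stayed over 0.2. At 1000 UMIs, 15 of the 2339 quadriceps FAP cells had a UMI of at least 4 of the genes, and 14 of these were in the tenocyte-like cluster. Of the 9 FAP cells with a Scx UMI, 8 also had Tnmd and 9 had Thbs4. In tenocyte-like cells 66 of 103 had at least 4 of the genes.

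In diaphragm the overlap was that of Tnmd and Thbs4. Of the 115 diaphragm FAP cells with a Tnmd UMI at 1000 UMIs, 94 also had Thbs4, where the product of the shares gives 46.0 cells. At least 2 of the 8 genes were seen in 5.73% of diaphragm FAP cells and 2.35% of those of quadriceps. With Thbs4 left out the shares were 0.249% and 1.28%, and at least 3 genes were seen in 0.149% and 0.983%. The larger quadriceps shares rested on the FAP cells of the tenocyte-like cluster. Outside it, 3 of 2137 FAP cells in quadriceps and 3 of 2007 in diaphragm had at least 3 genes, and with Thbs4 left out at least 2 genes in 0.187% and 0.249%.

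**Figure D4:**
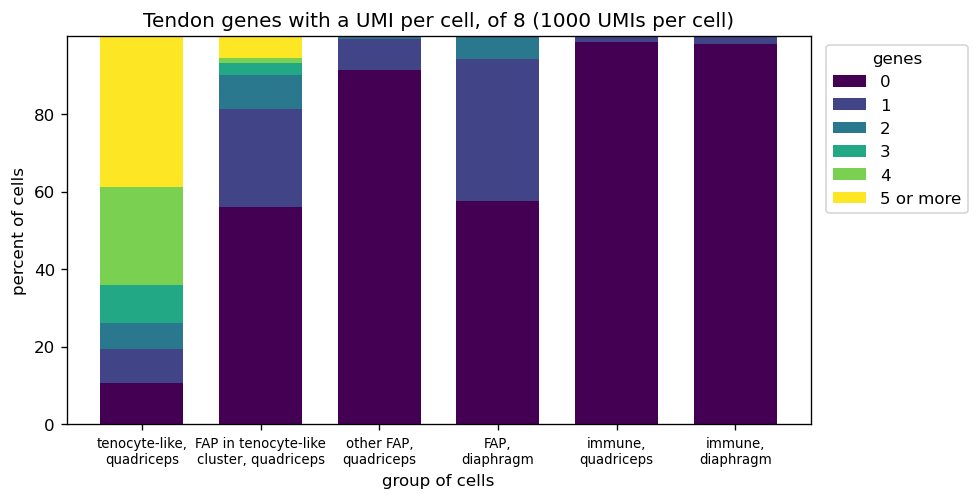
Percent of cells (y axis) by the number of the 8 genes with a UMI after thinning to 1000 UMIs per cell, for 6 groups of cells (x axis). At least 3 genes are seen in 73.8% of tenocyte-like cells and 0.149% of diaphragm FAP cells, and 57.6% of diaphragm FAP cells have 0.

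The genes most like each member over FAP cells were ranked by the mean of its correlations in both muscles. Candidates were 9741 genes detected in 5% or more of the FAP cells of each muscle. Only Tnmd, Comp and Thbs4 reached that share themselves. Tnmd was most like Fmod (0.49), Thbs4 (0.43), the crosslinking enzyme Lox (0.40), Col12a1 (0.37) and Fxyd6 (0.32). Thbs4 was most like the collagen gene Col8a1 (0.54), Fibin (0.51), the microfibril-associated gene Mfap4 (0.49), Cilp (0.48) and Tnmd (0.43). Comp went with other genes: Cst3 (0.30), Clu (0.27), Ccdc3 (0.27), Cilp (0.24) and Prg4, the lubricin gene (0.23). The other 5 genes were seen in 0.0996% to 3.14% of FAP cells, and for such sparse counts the ranking is no finding. Fmod led it for each of them, from 0.21 for Mkx to 0.46 for Cilp2.

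FAP cells were also divided into 10 subclusters, again without the 8 genes, to see where among them the genes lay. A subcluster led by Fmod, Mfap4 and C1qtnf3 had the highest level of each gene in quadriceps and in diaphragm of Thbs4, Tnmd and Mkx, but not of Comp or Tnc. It held 61 quadriceps cells, 26 of them from the tenocyte-like cluster, and 467 diaphragm cells, 0 of them from it. Its quadriceps cells had Thbs4 at 5378 CPM, Comp at 832 CPM, Tnmd at 467 CPM, Cilp2 at 333 CPM, Chad at 308 CPM, Scx at 194 CPM and Tnc at 171 CPM. Its diaphragm cells had Thbs4 at 4113 CPM and Tnmd at 261 CPM, but Comp at 77.9 CPM, Mkx at 7.81 CPM, Tnc at 2.28 CPM, Cilp2 at 1.46 CPM, Scx at 1.30 CPM and Chad at 0.325 CPM. The 35 quadriceps cells of the subcluster outside the tenocyte-like cluster had Thbs4 at 3538 CPM, Comp at 148 CPM, Tnc at 110.2 CPM (56 UMIs), Tnmd at 98.4 CPM, Cilp2 at 11.8 CPM (6 UMIs), Scx at 7.87 CPM (4 UMIs) and 0 Chad UMIs. The high Scx, Chad and Cilp2 of the quadriceps cells were thus those of the 26 cells.

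Thbs4 in diaphragm was not restricted to that subcluster. Each of the 6 subclusters with at least 20 diaphragm cells had it at 201 CPM or more, with 201 CPM in the cells led by Col6a5 and 1390.2 CPM in those led by Prg4, Clu and Meox2. In quadriceps the cells led by Stmn4, Cmah and Cd55 had it at 11.95 CPM and their diaphragm counterparts at 652 CPM. Comp was highest in diaphragm in the subcluster led by Prg4, Clu and Meox2, at 100.3 CPM, before the one led by Fmod at 77.9 CPM. In quadriceps that subcluster had Comp at 161 CPM, below the 832 CPM of the cells led by Fmod and the 231 CPM of those led by C4b, Gdf10 and Inmt. Tnmd was at 213 CPM in quadriceps cells led by C4b, Gdf10 and Inmt, 154 of which were of the tenocyte-like cluster, and at 37.4 CPM in the diaphragm cells. Its other 192 quadriceps cells had Tnmd at 26.2 CPM.

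**Figure D5:**
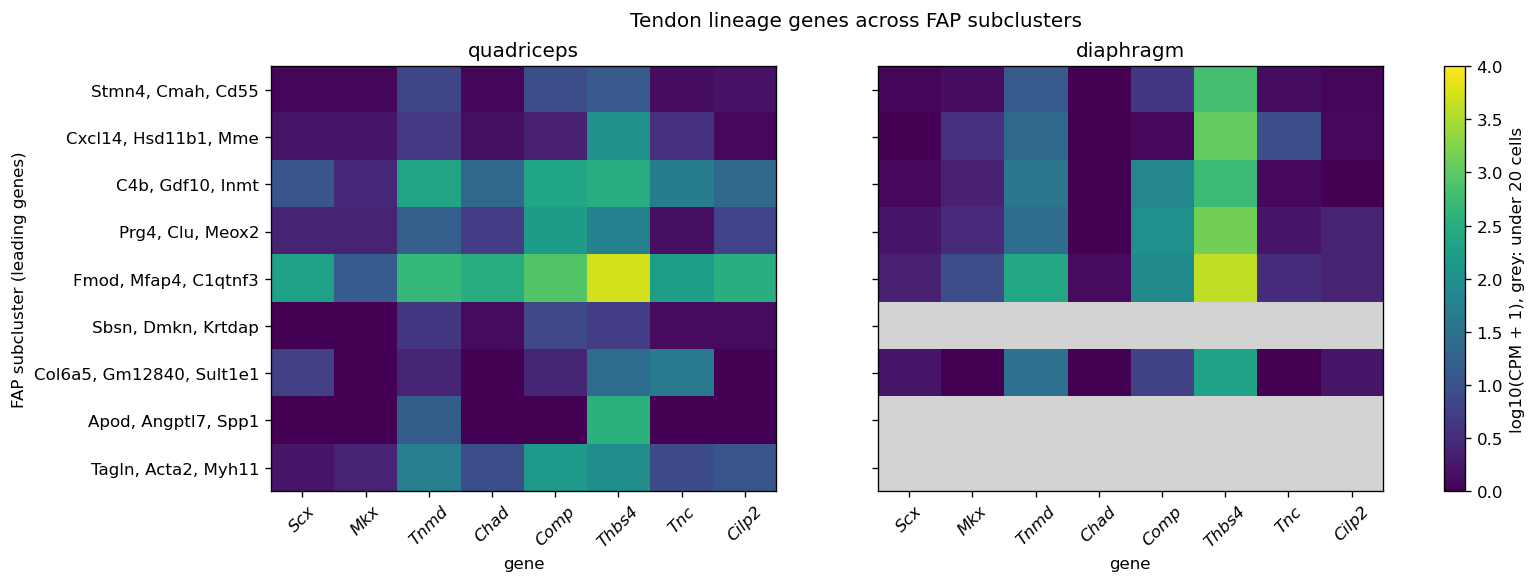
Level of each gene (x axis) as log10(CPM + 1) in FAP subclusters named by 3 leading genes (y axis), by muscle, with grey where a muscle has under 20 cells and the smallest subcluster left out. The subcluster led by Fmod, Mfap4 and C1qtnf3 has the highest Thbs4 in both muscles (5378 and 4113 CPM), and its quadriceps cells, 26 of 61 from the tenocyte-like cluster, also carry Scx, Chad and Cilp2.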

How the data were processed

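The deposited matrices held raw UMI counts per gene and barcode that the authors made with Cell Ranger 3.0.0 from reads aligned to mm10. Per the submitters' notes Seurat was used too, and no values from it are used here. Barcodes of 1000 UMIs or more were kept unless their log10 UMIs lay over 3 scaled median absolute deviations above the library's median. No mitochondrial limit and no doublet caller were used in the main results. The files hold 7658 barcodes, the count the study names before its filter, and these steps left 7440, of which 3833 had at most 5% mitochondrial UMIs. Both libraries were clustered together with scanpy 1.11.5 (2000 variable genes scaled within each library, 10 principal components, 20 neighbours, Leiden at a resolution of 1, without the 8 genes). A cluster was named FAP when over 50% of its cells passed the FAP gate and fewer than 3 tenocyte markers were raised. Any other cluster took the type with at least 3 raised markers and more than any other type. Raised meant seen in at least 10% of its cells at 2-fold or more. No other type could have more markers among its 10 genes of highest fold, and a cluster of low depth needed at least 1 there. Cells passing the FAP gate were FAP cells in any cluster. FAP subclusters used a resolution of 0.5. Log2 folds of CPM used a pseudocount of 1, and correlations used log counts per 10000. Scripts were tested on simulated counts. The members and lists were chosen with earlier results of these data known. Genes named were the 8 members, up to 4 listed genes with the largest fold per list, and the 5 most alike per member. Alternatives were a mitochondrial limit, other gates, Scrublet, other clustering, scaling, pseudocount and thinning.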

Additional observations from a re-analysis of the deposited data

Results flagged for a closer look

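Tnmd differed in direction between the muscles when FAP cells were set against smooth muscle or pericyte-like cells. FAP cells had 0.783 times the Tnmd level of that class in quadriceps (interval 0.724 to 0.847) and 2.12 times its level in diaphragm (1.36 to 3.54). The diaphragm class held 47 cells with 19 Tnmd UMIs. It was not made of the same clusters as the quadriceps class. The quadriceps cells came from clusters led by Tagln and Acta2 and by Rgs5 and Mcam. In diaphragm 42 of the 47 came from a cluster without quadriceps cells, led by Rasl11a and Rasd1. Over 5% mitochondrial UMIs were found in 1194 of 1202 quadriceps and 46 of 47 diaphragm cells of the class. The part of this make-up in the ratios was not tested. Without the FAP cells of the tenocyte-like cluster the ratio was 0.192 (0.169 to 0.218) in quadriceps and 2.13 (1.36 to 3.54) in diaphragm. The difference between the muscles was not tested, since each had 1 library.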

How the results depend on the processing

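The 8 log2 folds of tenocyte-like over FAP cells kept their direction in all 12 alternatives, as did the 8 folds of diaphragm over quadriceps FAP cells in all 9, and no direction was reversed, although the order of the ratios moved. With at most 5% mitochondrial UMIs, 21 tenocyte-like cells remained, at least 2 of the genes were seen in 52.4% of them, 1.70% of quadriceps and 4.66% of diaphragm FAP cells, and 0 tendon genes were past 2-fold lower in diaphragm, since Comp moved to -0.90. Thinning to 3000 UMIs gave 90.4%, 3.88% and 12.7% for those shares, with 1 pair of genes over a correlation of 0.2 in diaphragm FAP cells, and no thinning gave 7.87% and 22.1% for FAP cells. A gate of 20 Dcn UMIs, or of 2 Pdgfra UMIs, also left 1 such pair in diaphragm, and Spearman's rho left 14 pairs in quadriceps. Clustering each library on its own put 16 diaphragm cells in the class by the naming rule, although their own markers were mixed. Tenocytes by a gate on Fmod and other markers gave 96.6% with at least 2 genes in quadriceps and 1 cell in diaphragm. With no minimum level, 1210 genes were past 2-fold higher in tenocyte-like cells, 594 in FAP cells of the tenocyte-like cluster over other FAP cells, and 401 higher and 657 lower in diaphragm FAP cells, 5 of the lower ones among the 8.

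Leaving out the FAP cells of the tenocyte-like cluster was chosen after seeing the data. At least 2 genes were then seen in 0.796% of quadriceps FAP cells, 2 of the 8 were past 2-fold higher and 0 lower in diaphragm, and 6 pairs stayed over 0.2. FAP cells of clusters named FAP gave 0.826%, 2, 0 and 5 pairs. Scrublet called 99 quadriceps cells, 71 of them FAP cells and 0 tenocyte-like. In diaphragm it called 2 cells, 0.0823%, too few for it to have worked. No paired analysis was possible because each muscle had 1 library. Counts of a few UMIs limit Scx, Mkx, Chad, Tnc and Cilp2 in FAP cells, above all in diaphragm, and no interval covers the difference between animals.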
